A study of Mus musculus with 6 samples.

Results

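Genes of the actin filament, of the actomyosin motor and of the ezrin, radixin and moesin (ERM) family were followed in a pigment cell line kept with or without neuregulin. The list held 57 genes, chosen by symbol with earlier results of these data known. Of these, 54 had a probe set paired with that gene alone. These 54 are described here out of 19938 genes tested. Actg1, Fmnl3 and Arpc3 were not measured in this way.

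The cells were Melan-Ink4a, an immortal melanocyte line from C57BL/6J mouse skin whose genotype is given as Ink4a-ARF1 null, so that both groups lack this tumour suppressor locus. The NRG1 group, 3 arrays, had received NRG1-b1, the EGF-like part of neuregulin 1, at 10 nM over 21 days, and the untreated group, 3 arrays, had not. Both groups grew in serum with 200 nM of the phorbol ester TPA, which activates protein kinase C, and 200 pM cholera toxin, which raises cyclic AMP, and RNA was taken at 90% confluence. The treatment text of the labels is the same for all samples, so the groups rest on the sample titles. All arrays were of a single line, and the labels do not say whether the 3 samples of a group were separate cultures. The p-values below thus reflect sample-to-sample spread alone, and that spread may be technical.

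Levels were read on Affymetrix Mouse Gene 1.0 ST arrays and are reported on the log2 scale of the deposited table, where a difference of 1 is 2-fold. Changes are NRG1 minus untreated. Rises and falls are changes with an adjusted p under 0.05 by limma, adjusted over all genes tested. Arrays of one group correlated at 0.996 to 0.997 over all genes, and arrays of different groups at 0.981 to 0.986. All 10 melanocyte markers examined, among them Tyrp1, Dct, Pmel and Sox10, were above the array median on every array, and 9 of them were lower with NRG1. The mean log2 level of that list was 11.03 to 11.04 on the NRG1 arrays, against 11.74 to 11.79 on the untreated arrays.

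Actin is held in the cell as monomers and as filaments. Thymosins and profilins bind monomers, formins and the Arp2/3 complex start new filaments, and cofilins take old ones apart. Tropomyosins coat filaments, myosin II pulls on them, crosslinkers join them into bundles and nets, and ERM proteins tie them to the membrane. In melanocytes the actin cortex carries the dendrites and helps to hold melanosomes at the cell edge.

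Most parts of this machinery were higher with NRG1, with 28 genes that rose, 5 that fell and 21 that were not called among the 54. Over all genes tested the called share was 20.9%, with 12.3% that rose and 8.56% that fell. These are 2461 rises and 1707 falls, which became 2257 and 2396 under quantile normalization over the tested genes only, while the 54 genes then held 26 rises and 4 falls. The median change of the 54 genes was 0.24 on the log2 scale, against -0.03 for all genes tested. Rises reached into every role measured except the ERM proteins and the intermediate filament gene Vim. NRG1 and untreated values did not overlap in 40 of the 54 genes, against 36.7% of all genes tested. Because the list was chosen with earlier results known, these shares describe it and are not a test.

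Many of these genes are strongly expressed, and called genes were more common at high levels. Among all genes at or above the 90th percentile of level, 47.2% were called and 28.5% rose. Of the 28 actin genes in that range, 19 were called, 16 of which rose. The other 26 held 14 called genes, against 18% of all genes below that percentile.

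**Figure D1:**
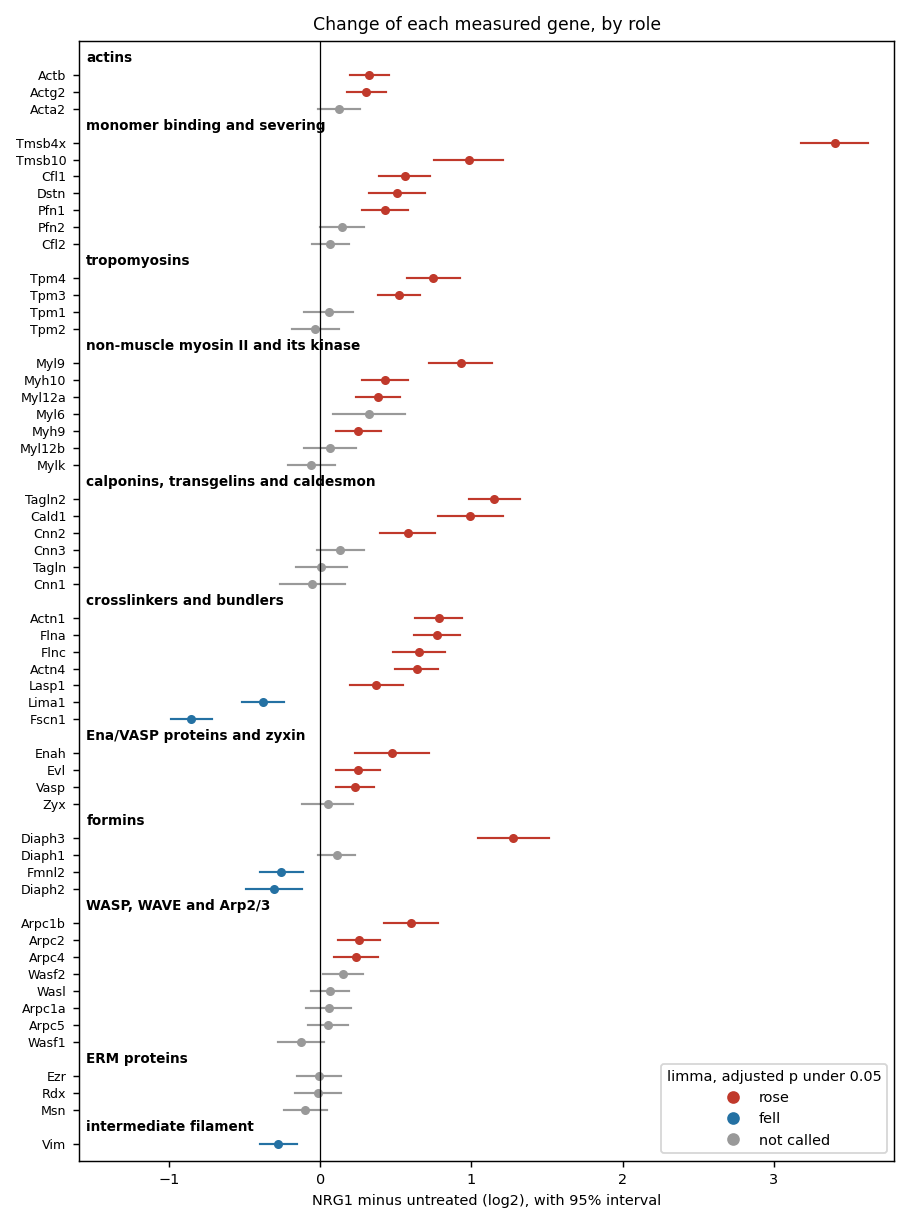
Change of each of the 54 genes, NRG1 minus untreated on the log2 scale, with its 95% interval from limma, grouped by role. Red marks genes that rose, blue genes that fell and grey genes that were not called. Tmsb4x stands apart at 3.40, and the 3 ERM genes lie within 0.11 of 0.

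The steepest rise belonged to Tmsb4x, the gene of thymosin beta 4, a small peptide that binds actin monomers and keeps them from joining filaments. Its level was 10.68, 10.49 and 10.34 on the NRG1 arrays, against 7.11, 7.25 and 6.94 on the untreated arrays. The groups were separated by more than 3 log2 units. The change was 3.40 ± 0.0997 (SE), which is 10.6-fold (limma, adjusted p = 1.15e-08), and only 5 of the 19938 genes tested had a larger rise. Its untreated level lay close to the array medians of 7.11 to 7.19. Tmsb10, whose product is a close relative with the same kind of action, had values of 11.79, 11.57 and 11.38 with NRG1 and 10.50, 10.73 and 10.57 without. It rose by 0.98 ± 0.102 (SE), or 1.98-fold (limma, adjusted p = 6.61e-05), and a second probe set gave 1.00. Whether that probe set reads a copy of Tmsb10 elsewhere in the genome was not tested. The Tmsb4x to Tmsb10 log2 ratio within each array was -1.08 ± 0.0372 on NRG1 arrays and -3.50 ± 0.114 on untreated arrays (SD, n = 3 each), a shift of 2.42 with no overlap.

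Other monomer binding and severing genes moved by smaller amounts. Cfl1, the gene of the main non-muscle cofilin, was at 11.93, 11.72 and 11.77 with NRG1 and at 11.20, 11.36 and 11.20 without. That is a rise of 0.56 ± 0.0761 (SE; limma, adjusted p = 0.000431). Dstn, which encodes the related filament-severing protein destrin, read 10.45, 10.31 and 10.55 with NRG1 against 9.93, 10.05 and 9.81 untreated, a rise of 0.51 (adjusted p = 0.00152). The profilin gene Pfn1, whose product hands monomers to growing ends, rose by 0.43 (adjusted p = 0.00143). The other cofilin and profilin genes, Cfl2 and Pfn2, had changes of 0.07 and 0.14 that were not called (adjusted p = 0.478 and 0.161). In this role 5 of 7 genes rose and none fell.

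Among the actins, Actb, the gene of cytoplasmic beta-actin, had 13.79, 13.82 and 13.82 on the NRG1 arrays, against 13.45, 13.53 and 13.49 on the untreated arrays. The groups did not overlap, and the rise was 0.32 ± 0.0572 (SE; limma, adjusted p = 0.00238). This level is near the top of the scale, which ended at 14.6, and array signals are compressed there. Another 4 probe sets are paired with both Actb and Actg1, the cytoplasmic gamma-actin gene, and they rose by 0.27 to 0.31 (limma over all named probe sets, adjusted p from 0.00354 to 0.00607). They cannot separate the 2 genes. Actg2, a smooth muscle actin gene, read 6.29, 6.24 and 6.23 with NRG1 and 5.91, 5.94 and 5.99 without, a rise of 0.30 (adjusted p = 0.00396) at a level below the array medians. Acta2, the other smooth muscle actin gene on the list, averaged 6.74 ± 0.046 on NRG1 arrays and 6.62 ± 0.0663 on untreated arrays (SD, n = 3 each) and was not called (adjusted p = 0.201). Actin genes are alike in sequence, and how far their probe sets read each other's transcripts was not tested.

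The tropomyosin genes divided evenly. Tpm4 was at 10.63, 10.51 and 10.47 with NRG1, against 9.73, 9.93 and 9.70 untreated, a rise of 0.75 ± 0.0778 (SE; limma, adjusted p = 6.54e-05). A probe set shared by Tpm4 and Gm7809 gave 0.86. Tpm3 read 11.81, 11.74 and 11.75 with NRG1 and 11.22, 11.33 and 11.20 without, which is a rise of 0.52 (adjusted p = 0.000175). Its other probe sets gave 0.39, 0.25 and 0.10, the last of which was not called. Both the size and the call of Tpm3 thus depend on the probe set used. Whether any of its probe sets, the one used included, reads copies of this gene elsewhere in the genome was not tested. Tpm1 and Tpm2, the genes best known from muscle, had changes of 0.05 and -0.03 and overlapping groups. The interval for Tpm1 ran from -0.11 to 0.21, and that for Tpm2 from -0.19 to 0.12.

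Non-muscle myosin II is built from heavy chains, regulatory light chains and essential light chains, and genes of the first and second kinds rose. Myl9, a regulatory light chain gene, had the largest change of this role. Its values were 7.65, 7.30 and 7.43 with NRG1 and 6.65, 6.43 and 6.51 without, a rise of 0.93 ± 0.0936 (SE), or 1.9-fold (limma, adjusted p = 5.24e-05). Of the other regulatory light chain genes, Myl12a rose by 0.38 (adjusted p = 0.00198), whereas Myl12b had a change of 0.06 with an interval from -0.11 to 0.24. The heavy chain gene Myh10 read 6.98, 6.95 and 6.99 with NRG1, against 6.67, 6.45 and 6.54 untreated, a rise of 0.43 (adjusted p = 0.00131).

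Calls near the threshold in this role were less firm. Myh9, the gene of the other heavy chain, rose by 0.25 (limma, adjusted p = 0.0239), with 11.11 ± 0.025 in NRG1 cells and 10.86 ± 0.102 in untreated cells (SD, n = 3 each). That call was lost when any 1 of 5 arrays was left out, every array but untreated replicate 2, with changes of 0.214 to 0.263 and adjusted p from 0.0553 to 0.096. Over 16 settings the adjusted p ran from 0.00161 to 0.096. Here and below, the 16 settings leave out the test against a 1.2-fold change, which asks for larger changes. None of the genes given with such a range was called in that test. The second, dimmer probe set of Myh9 gave 0.14 and was not called. The essential light chain gene Myl6 was not called, at 0.32 (adjusted p = 0.0605), but it was called in 11 of 16 alternative settings (adjusted p from 0.00768 to 0.194). Its 5 other probe sets gave 0.30 to 0.35, and 3 of them passed. Any of the Myl6 probe sets, the one used included, may read copies of this gene elsewhere in the genome, which was not tested. Without untreated replicate 2 its change was 0.434 (adjusted p = 0.0107), and without NRG1 replicate 3 it was 0.399 (adjusted p = 0.0388). Mylk, which encodes the kinase that switches on the regulatory light chain, averaged 7.12 ± 0.0942 on NRG1 arrays and 7.18 ± 0.0678 on untreated arrays (SD, n = 3 each), and was not called.

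Calponins, transgelins and caldesmon are filament-binding proteins first known from smooth muscle, and 3 of the 6 genes rose and none fell. Tagln2 had 9.46, 9.33 and 9.22 with NRG1, against 8.17, 8.27 and 8.11 untreated. It rose by 1.15 ± 0.0768 (SE), or 2.22-fold (limma, adjusted p = 2.75e-06). Cald1, whose product ties actin to tropomyosin and myosin, read 7.18, 6.87 and 6.78 with NRG1 and 6.01, 5.95 and 5.90 without, a rise of 0.99 (adjusted p = 3.91e-05). The untreated level of Cald1 was as low as that of the 25th percentile gene, at 5.96, where array signals are compressed and a change can be understated. Cnn2 was at 10.71, 10.60 and 10.65 with NRG1 and at 9.98, 10.25 and 9.99 without, a rise of 0.58 (adjusted p = 0.000512). Cnn3 had a change of 0.13 that was not called (adjusted p = 0.23). The smooth muscle markers Tagln and Cnn1 were low in both groups. Tagln had a mean of 6.42 ± 0.125 on NRG1 arrays and 6.41 ± 0.0603 on untreated arrays. Cnn1 had a mean of 5.77 ± 0.142 on NRG1 arrays and 5.83 ± 0.166 on untreated arrays (SD, n = 3 each).

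**Figure D2:**
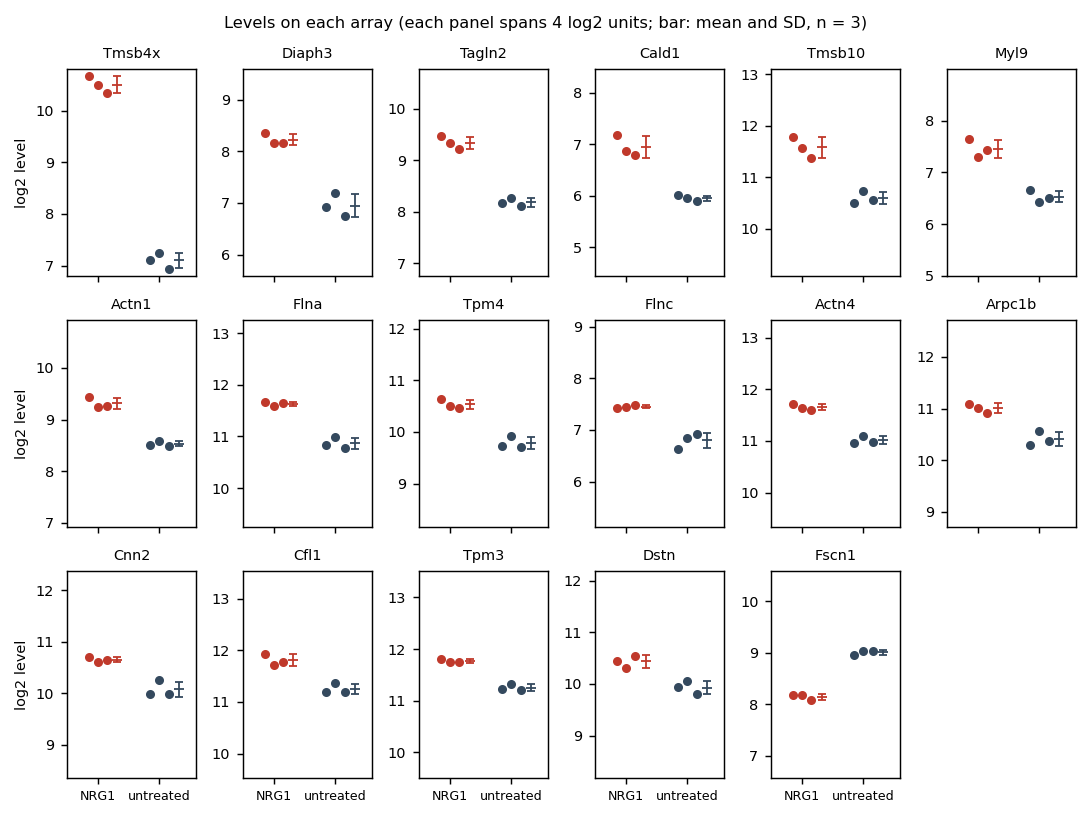
Log2 level on each array for the 17 genes that changed by at least 0.5 on the log2 scale without overlap between the groups, with NRG1 arrays in red at left and untreated arrays in dark blue at right. Bars give the mean and SD of 3 arrays, and every panel spans the same range, so distances can be compared between panels. All but Fscn1 were higher with NRG1.

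Crosslinkers and bundlers were called without exception, 5 upwards and 2 downwards. Actn1 and Actn4, the non-muscle alpha-actinins, both rose. Actn1 read 9.44, 9.23 and 9.27 with NRG1, against 8.51, 8.59 and 8.50 untreated, a rise of 0.78 ± 0.0705 (SE; limma, adjusted p = 2.39e-05). Actn4 was at 11.72, 11.65 and 11.60 with NRG1 and at 10.97, 11.10 and 10.99 without, a rise of 0.64 (adjusted p = 5.61e-05). The filamins, which hold filaments in loose nets and anchor them to membrane receptors, moved by like amounts. Flna had 11.66, 11.59 and 11.65 with NRG1 and 10.83, 10.98 and 10.78 without, a rise of 0.77 (adjusted p = 2.14e-05). Flnc, the muscle filamin, was at 7.43, 7.45 and 7.48 with NRG1 and at 6.63, 6.84 and 6.92 without, a rise of 0.65 (adjusted p = 0.000163). Lasp1, a LIM and SH3 domain protein of cell edges and adhesions, rose by 0.37 (adjusted p = 0.00738).

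The falls in this role were those of a filopodial bundler and of a filament stabiliser. Fscn1, the gene of fascin, which packs filaments tightly in filopodia, read 8.18, 8.19 and 8.08 with NRG1, against 8.95, 9.04 and 9.02 untreated. It fell by 0.86 on the log2 scale, which is 1.81-fold (limma, adjusted p = 4.63e-06), the largest fall among the 54 genes. Lima1, which encodes EPLIN, a protein that crosslinks filaments and slows their turnover, averaged 10.29 ± 0.0216 on NRG1 arrays and 10.67 ± 0.0821 on untreated arrays (SD, n = 3 each), a fall with a change of -0.38 (adjusted p = 0.00161).

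Changes among genes for filament elongation and branching were small, apart from those of Diaph3 and Arpc1b. Diaph3 encodes a diaphanous formin that starts and extends straight filaments. Its values were 8.35, 8.17 and 8.16 with NRG1 and 6.92, 7.18 and 6.75 without, a rise of 1.28 ± 0.105 (SE), or 2.42-fold (limma, adjusted p = 1.3e-05). The other formins did not share this direction. Diaph2 read 8.33, 8.07 and 8.30 with NRG1, against 8.61, 8.59 and 8.43 untreated, a change of -0.31 (adjusted p = 0.0253), and Fmnl2 changed by -0.26 (adjusted p = 0.0171). Diaph1 was not called, at 0.11 (adjusted p = 0.231).

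Both falls were calls that single arrays decided. Diaph2 was not called without NRG1 replicate 2 (-0.227, limma, adjusted p = 0.0859), without untreated replicate 1 (-0.275, adjusted p = 0.0965) or without untreated replicate 2 (-0.286, adjusted p = 0.0667). The 16 settings gave adjusted p-values between 0.00485 and 0.0965. Fmnl2 was not called without NRG1 replicate 1 (-0.224, adjusted p = 0.0741) or untreated replicate 1 (-0.226, adjusted p = 0.0813), the highest of its values, which started at 0.000944.

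The Arp2/3 complex starts side branches on filaments when WASP or WAVE proteins activate it. Arpc1b, one form of a subunit that comes in 2 forms, read 11.10, 11.01 and 10.92 with NRG1 and 10.30, 10.56 and 10.37 without, a rise of 0.60 ± 0.0798 (SE; limma, adjusted p = 0.000359). A second probe set gave 0.48, and whether it reads a copy of this gene elsewhere in the genome was not tested. Arpc1a, the other form, had a change of 0.05 with overlapping groups and an interval from -0.09 to 0.20. Arpc2 had 11.05, 10.96 and 10.93 with NRG1 against 10.76, 10.75 and 10.66 untreated, a rise of 0.25 (adjusted p = 0.0157). Arpc4 rose by 0.24 (adjusted p = 0.0285), and Arpc5 was not called, at 0.05. The activator genes Wasl, Wasf1 and Wasf2 had changes of 0.06, -0.13 and 0.15, and none of them was called, although Wasf2 passed in 3 of 16 alternative settings (adjusted p from 0.0255 to 0.325). Arpc2 lost its call without NRG1 replicate 1 (0.218, adjusted p = 0.0712) or untreated replicate 3 (0.224, adjusted p = 0.0546). The 16 settings spanned 0.000794 to 0.0712 for this gene. Arpc4 lost it without any 1 of 4 arrays, NRG1 replicates 1 and 2 and untreated replicates 1 and 3, with changes of 0.197 to 0.234 and adjusted p from 0.0691 to 0.124. It also lost it with a replicate block (adjusted p = 0.051), under quantile normalization (0.183, adjusted p = 0.0513) and under quantile normalization over the tested genes only (0.158, adjusted p = 0.072). The lowest value was 0.00356.

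Proteins of the Ena/VASP family protect growing filament ends, and all 3 of their genes rose a little. Enah read 6.57, 6.79 and 6.77 with NRG1, against 6.35, 5.97 and 6.39 untreated, a rise of 0.47 ± 0.11 (SE; limma, adjusted p = 0.0115). Evl was at 8.11, 7.99 and 8.03 with NRG1 and at 7.84, 7.71 and 7.85 without, a rise of 0.25 (adjusted p = 0.0235). Vasp rose by 0.23 (adjusted p = 0.016). Zyx, the gene of zyxin, which recruits these proteins to stress fibres and adhesions, was not called at 0.05 (adjusted p = 0.73). The Evl call ended without any 1 of 4 arrays, NRG1 replicates 1 and 3 and untreated replicates 1 and 2 (0.202 to 0.267, adjusted p from 0.0521 to 0.0949, and from 0.00521 to 0.0949 over 16 settings). The Vasp call ended without NRG1 replicate 2, NRG1 replicate 3 or untreated replicate 1 (0.211 to 0.232, adjusted p from 0.0507 to 0.0643, and from 0.00297 to 0.0643 over 16 settings). Quantile normalization over the tested genes only also ended both calls, at 0.193 for Evl (adjusted p = 0.0534) and 0.165 for Vasp (adjusted p = 0.0563).

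The ERM genes, whose products link filaments to membrane proteins, were not called. Msn read 11.31, 11.21 and 11.32 with NRG1, against 11.38, 11.45 and 11.31 untreated, and the groups overlapped. Its change was -0.10, with an interval from -0.24 to 0.04 (limma, adjusted p = 0.325). Rdx was at 10.25, 10.13 and 10.24 with NRG1 and at 10.15, 10.32 and 10.19 without, a difference of -0.02 with an interval from -0.17 to 0.14. Ezr had a change of -0.01, within -0.16 to 0.13. Over the 3 genes these intervals span -0.24 to 0.14.

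Vim, the gene of vimentin, the intermediate filament protein of mesenchymal and neural crest cells, was at 13.26, 13.26 and 13.27 with NRG1 and at 13.54, 13.53 and 13.55 without. The groups were tight and apart, and Vim fell by 0.28 on the log2 scale (limma, adjusted p = 0.0048). The call ended when quantile normalization was run over the tested genes only (-0.10, adjusted p = 0.174, against 5.6e-06 in the most favourable of 16 settings). It held without each single array. Like Actb, Vim sits near the top of the scale, where differences can be understated.

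Related genes were set side by side in 15 pairs, with the log2 ratio of the 2 genes taken within each array. The pairs were chosen with the results known, so how many of them differed says nothing of related genes in general, and their values are a description with no test. The shift was 1.59 for Diaph3 over Diaph2, 1.17 for Diaph3 over Diaph1, 1.15 for Tagln2 over Tagln and 0.69 for Tpm4 over Tpm1. It was 0.55 for Myl9 over Myl12a, 0.55 for Arpc1b over Arpc1a, 0.49 for Cfl1 over Cfl2 and 0.32 for Myl12a over Myl12b. The pairs whose ratios overlapped between groups were Flnc over Flna, at -0.12, and Myh10 over Myh9, at 0.18.

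**Figure D3:**
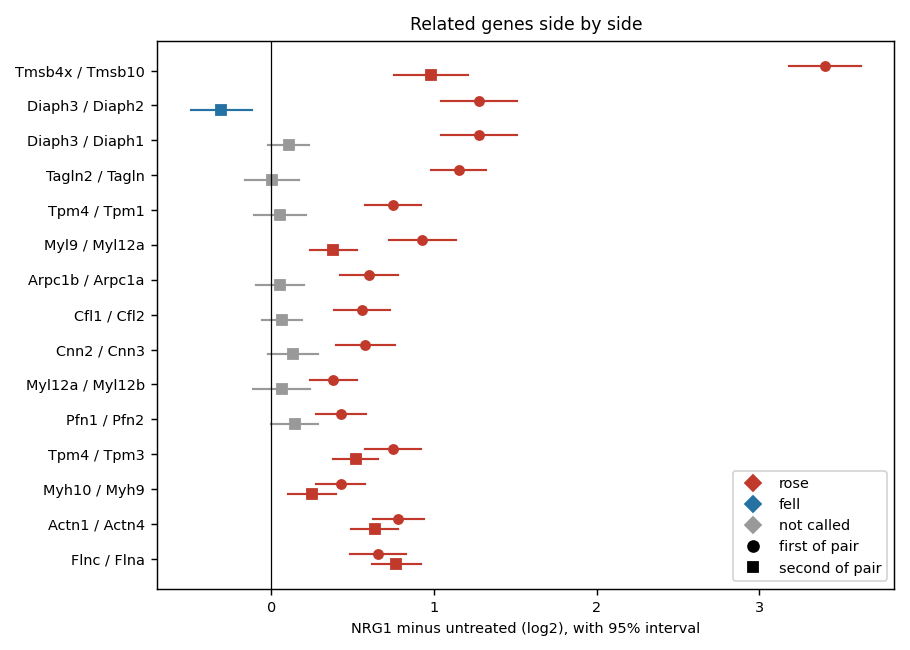
Changes of related genes side by side, NRG1 minus untreated on the log2 scale with 95% intervals from limma. Circles are the first and squares the second gene named, ordered by the shift of their ratio from 2.42 for Tmsb4x over Tmsb10 to -0.12 for Flnc over Flna.

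Listed genes that lie next to each other on a chromosome had unlike calls, and neighbours outside the list were not examined. In the RefSeq order of protein-coding genes (GRCm38.p6), Myl12a lies next to Myl12b on chromosome 17, and Arpc1a next to Arpc1b on chromosome 5. In both cases 1 gene rose and the other was not called, at 0.06 for Myl12b and 0.05 for Arpc1a. Actb and Fscn1 are also next to each other, on chromosome 5, and there Actb rose by 0.32 while Fscn1 changed by -0.86.

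Many cytoskeletal genes are known targets of serum response factor (SRF), which binds a 10-base element called the CArG box and whose coactivators are set free when actin monomers run low. RefSeq promoter windows, from 250 bases before to 50 after the annotated start, were at hand for 53 of the 57 genes, 61 windows in all. A CArG box without mismatch, which reads the same way on both strands in this form of search, was found in 535 of 32851 mouse windows, or 1.63%. It was found in 6 of the 61 windows, those of Myl9, Cnn2, Arpc4, Myl6, Lima1 and Actg1. Myl9, Cnn2 and Arpc4 rose, Myl6 was not called, Lima1 fell and Actg1 was not measured. With so few genes, a link between the match and the direction of change was not tested. The stretches are shown 5′ to 3′ because genes with the same element differed in direction. Capitals mark the box, and each stretch holds up to 45 bases on either side within the part upstream of the start. For comparison the last stretch is the 100 bases before the start of Tmsb4x, the steepest riser, whose window has no such box. A missing match says only that these letters are not in that window.
Myl9 (chr2:156775258-156775357, plus strand): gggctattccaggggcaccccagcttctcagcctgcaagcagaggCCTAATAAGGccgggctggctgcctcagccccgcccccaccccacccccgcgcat
Cnn2 (chr10:79988499-79988598, plus strand): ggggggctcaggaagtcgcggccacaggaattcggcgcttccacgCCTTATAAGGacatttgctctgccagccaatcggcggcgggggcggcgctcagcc
Arpc4 (chr6:113377863-113377917, plus strand): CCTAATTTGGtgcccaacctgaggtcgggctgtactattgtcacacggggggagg
Myl6 (chr10:128493010-128493104, minus strand): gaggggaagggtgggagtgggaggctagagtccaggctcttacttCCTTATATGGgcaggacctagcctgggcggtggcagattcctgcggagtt
Lima1 (chr15:99820150-99820241, minus strand): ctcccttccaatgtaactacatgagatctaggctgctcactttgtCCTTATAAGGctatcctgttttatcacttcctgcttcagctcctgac
Actg1 (chr11:120348531-120348630, minus strand): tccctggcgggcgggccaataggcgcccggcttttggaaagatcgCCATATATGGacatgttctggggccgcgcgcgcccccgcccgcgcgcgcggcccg
Tmsb4x (chrX:167209219-167209318, minus strand): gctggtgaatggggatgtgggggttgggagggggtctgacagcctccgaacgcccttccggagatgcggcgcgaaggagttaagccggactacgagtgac

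The boxes of Cnn2 and Lima1 have the same letters and begin 56 and 47 bases before the start, yet Cnn2 rose by 0.58 and Lima1 changed by -0.38. The AP-1 site, searched as TGAGTCA or TGACTCA, was in 5.2% of all windows and in 6 of the 61 windows here. Those were the windows of Cald1 and Myl12a, which rose, of Ezr, Mylk and Zyx, which were not called, and of Fmnl3, which was not measured. SRF itself was not called, at 0.09 (limma, adjusted p = 0.408), nor were the genes of its actin-sensing coactivators, Mrtfa at 0.23 (adjusted p = 0.0862) and Mrtfb at 0.14 (adjusted p = 0.169). In a list of 17 genes with SRF, its coactivators and genes it is known to regulate, 4 rose and none fell by limma, with 7 at an unadjusted p under 0.05. Over all genes tested, 6378 of 19938 were at an unadjusted p under 0.05. The share of the list that was called was 23.5%, against 20.9% of all genes tested. As every call was a rise, the share that rose was also 23.5%, against 12.3% of all genes tested, of which 8.56% fell. A part of SRF in these changes was not tested. The genes of this list that rose were Vcl, the gene of vinculin, by 1.07, Fos by 0.40, Csrp1 by 0.30 and Egr1 by 0.27.

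Outside the 54 genes, 147 other genes of the actin cytoskeleton, its signalling and related filaments were measured, and 42 rose, 11 fell and 94 were not called. The share called was 36.1%, between that of the 54 genes (61.1%) and that of all genes tested (20.9%). Their median change was 0.06 on the log2 scale. These lists too were chosen with earlier results known, so their shares are a description with no test. Among 26 genes for capping, severing and filament turnover, 10 rose and 1 fell. The rises were led by the coronin genes Coro2a (1.37) and Coro2b (0.70) and by the cortactin gene Cttn (0.53), and the fall was that of Eps8 (-0.20). Of 19 kinases and phosphatases 5 rose and 1 fell, with Cit, the citron kinase gene of cytokinesis, at 0.77, Cdc42bpa at 0.50 and the cofilin kinase gene Limk1 at 0.47, against -0.21 for Ppp1cb, a catalytic subunit of the phosphatase that acts on myosin.

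Other crosslinkers and cortical links had 7 rises and 2 falls among 24 genes. Nexn, whose product binds filaments at adhesions, rose by 1.2 at a dim signal (means of 5.99 with NRG1 and 4.79 without, the second below the 25th percentile gene at 5.96), Marcksl1 by 0.92 and the plastin gene Lcp1 by 0.80, and Lmo7 changed by -1.14 and Pdpn by -0.36. Of 20 unconventional and other myosins 4 rose, with Myo1e at 0.67, Myo18a at 0.29 and Myo9b at 0.26, and 4 fell. The falls included Myo5a, the motor that carries melanosomes along actin, at -0.50, as well as Myo1f at -0.34 and Myo7a at -0.29. Further parts of the Arp2/3 and WAVE complexes had the lowest share called of these lists, 15.4%, with 1 rise (Actr3, 0.24) and 1 fall (Nckap1, -0.25) among 13, though 7 of them were at an unadjusted p under 0.05 by limma. Among 15 intermediate filament genes other than Vim, 5 rose and none fell by limma (7 at an unadjusted p under 0.05), led by Nes (1.63), the nuclear lamin gene Lmnb1 (1.1) and Lmnb2 (0.34). Beside these counts, 6378 of all 19938 genes tested were at an unadjusted p under 0.05 by limma.

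**Figure D4:**
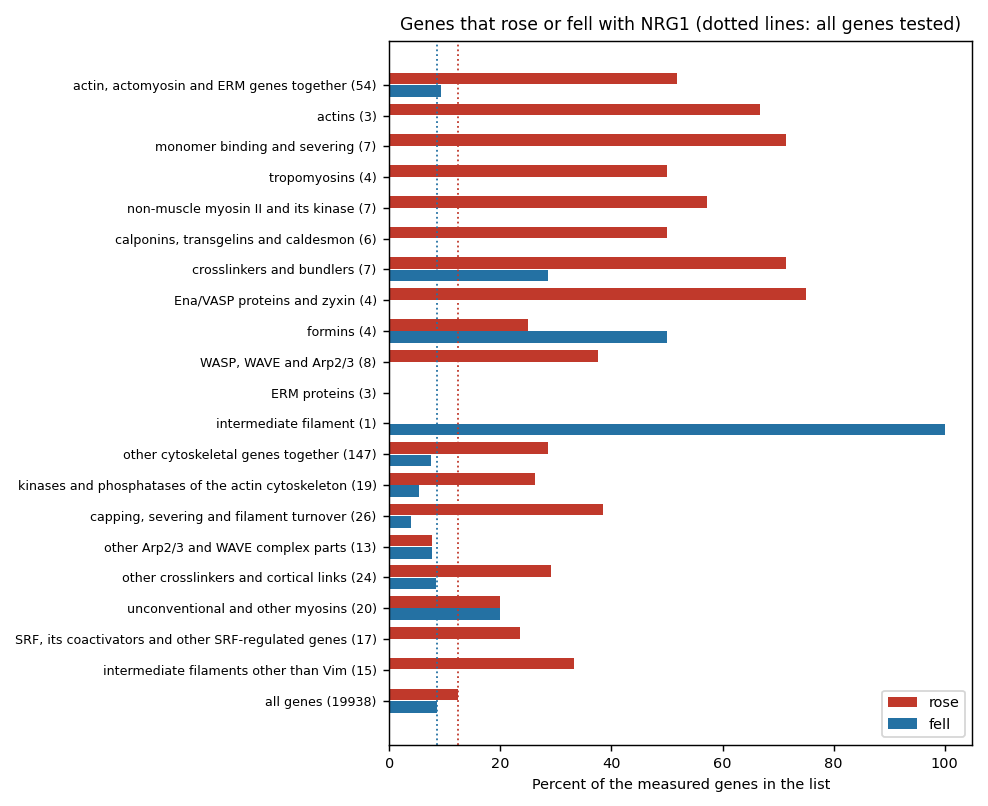
Percent of measured genes that rose (red) and fell (blue) with NRG1 in each role of the 54 genes and in 7 lists of related genes, with the number measured in parentheses. Dotted lines give the shares over all genes tested, 12.3% that rose and 8.56% that fell. Lists of 1 to 4 genes can only take coarse values.

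Several of these genes mark smooth muscle or fibroblasts as well, so lists of other cell types were read beside them. Of 8 smooth muscle markers only Smtn rose, by 0.69, and 7 were not called, though 5 of the 8 were at an unadjusted p under 0.05 by limma. Among those not called, Lmod1 changed by 0.21, Casq2 by 0.19, Myh11 by -0.17 and Synpo2 by -0.32. Myh11, Des and Myocd had means of 7.06 or lower in both groups. The mean log2 level of that list was 6.64 to 6.66 on the NRG1 arrays, against 6.56 to 6.64 on the untreated arrays. Of 12 markers of skeletal and heart muscle Tnnt2 alone rose (1.12), of 8 fibroblast markers Col1a1 alone (0.86) and of 6 macrophage markers Cd68 alone (0.23). No keratinocyte marker of 8 and no endothelial marker of 6 was called, with 0 and 2 at an unadjusted p under 0.05 by limma. Of all 19938 genes tested, 6378 were at an unadjusted p under 0.05. The mean level of the fibroblast list was 6.42 to 6.57 with NRG1 and 6.37 to 6.54 without. In that list 3 markers, Col1a1, Col1a2 and Col3a1, were above the array median on every array. Col1a2 changed by -0.27 and was not called (limma, adjusted p = 0.0551). Also above it were 6 skeletal and heart muscle markers, 2 smooth muscle markers, 1 keratinocyte marker, 1 macrophage marker and no endothelial marker. The part of these markers in the results was not tested, and in a bulk culture fewer cells of a kind and less RNA per cell cannot be told apart.

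The 54 genes also varied together within each group. NRG1 replicate 1 was the highest array of its group in 32 of them (59.3%, against 30.4% of all genes), and untreated replicate 2 in 34 (63%, against 38.1%). The median of the 54 genes lay 0.04 above the group mean on NRG1 replicate 1 and 0.06 above it on untreated replicate 2. Of the 54 genes, 43 were above their group mean on NRG1 replicate 1, against 45.4% of all genes. On untreated replicate 2 it was 41, against 49% of all genes. Among all genes at or above the 90th percentile of level, 89.4% were above their group mean on untreated replicate 2, with a median of 0.05, and 59% on NRG1 replicate 1. The part of this spread in the results was not tested. Leaving out NRG1 replicate 1 left 24 rises and 4 falls among the 54 genes, and leaving out untreated replicate 2 left 28 rises and 4 falls.

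**Figure D5:**
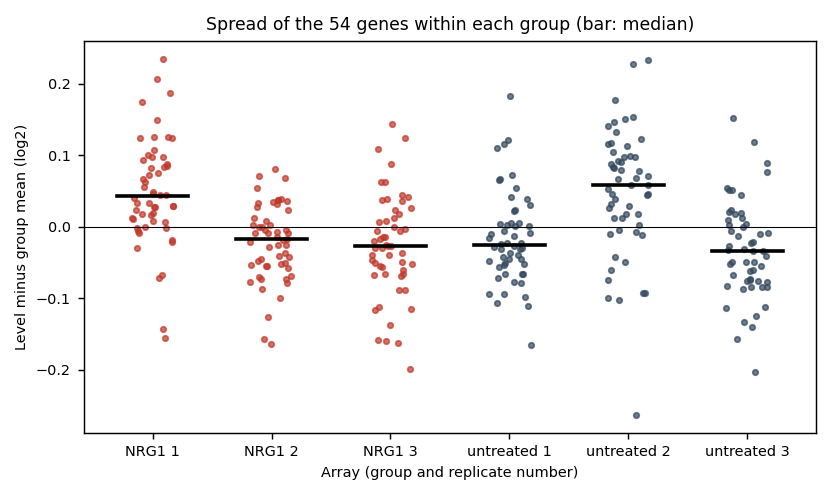
Level of each of the 54 genes on each array minus the mean of its group, on the log2 scale, with NRG1 arrays in red and untreated arrays in dark blue. Bars are medians, which are highest on NRG1 replicate 1 (0.04) and untreated replicate 2 (0.06).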

How the data were processed

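RNA of 3 NRG1-treated and 3 untreated samples of 1 cell line, 200 ng each, was hybridised to 1 array per sample. The authors deposited 1 log2 value per probe set and array, made with RMA and GCOS per the submitters' processing notes. The sources used here give no settings, versions or genome build, and values from 2.34 to 14.6 fit a log2 scale. Groups came from the sample titles. An array has no read depth, and the number of arrays limits the precision (median SE 0.0708).

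Of 35557 probe sets, 21789 had 1 gene in the platform annotation, 1621 several and 12147 none here. Symbols were updated through Entrez numbers to RefSeq, and the brightest probe set per gene by its mean over 6 arrays was kept, without a filter on level. This gave 19938 genes, tested on a mean per group by lmFit and eBayes (limma 3.58.1, R 4.3.3), 2-sided, at an adjusted p under 0.05 (Benjamini-Hochberg, all genes tested together). The fit was tested on simulated data. Values of further and shared probe sets came from a fit over all named probe sets.

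The members, roles, lists and pairs were chosen with earlier results of these data known. Values on every array are given for called genes that changed by at least 0.5 without overlap, for the 2 largest changes per role, and for Tmsb10, Actb, Actg1 and Vim where measured. 1 list within the 147 other cytoskeletal genes is counted in their total but not reported here on its own. In other lists up to 3 called genes per direction are named, and SRF and its coactivators were added because the promoter search turns on them. Alternatives were 2 further normalizations, another added after the data were seen, 2 filters on dim genes, averaged or all probe sets, a replicate block, array weights, a robust prior with trend, a test against a 1.2-fold change (treat) and the removal of each array in turn. Another background correction was not run, since it needs probe-level signals, and the sources used here name no scan batches.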

Additional observations from a re-analysis of the deposited data

How the results depend on the processing

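Of the 33 called genes among the 54, 25 kept their call in every alternative that tested them except the test against a minimum change, and 8 lost it in at least 1 (Myh9, Vasp, Evl, Diaph2, Fmnl2, Arpc2, Arpc4 and Vim). Of the 21 others, Myl6 and Wasf2 were called in at least 1 alternative and 19 in none. Against a minimum change of 1.2-fold (treat), 15 rises and 1 fall remained among the 54 genes, 16 and 2 among the other cytoskeletal genes, and 883 and 342 over all genes, as that test asks for larger changes. Leaving out 1 array gave 24 to 28 rises and 3 to 5 falls among the 54 genes, the 3 without untreated replicate 1. It gave 33 to 45 rises and 6 to 10 falls among the other cytoskeletal genes, with 6 falls without NRG1 replicate 1 and 7 without NRG1 replicate 2 or untreated replicate 1, and 1907 to 2596 rises and 1153 to 1801 falls over all genes. Array weights gave 2881 falls over all genes, against 1707; the cause was not tested. Quantile normalization over the tested genes only, chosen after seeing the data, moved the split over all genes to 2257 rises and 2396 falls (48.5% rises, against 59%), and left 26 rises and 4 falls among the 54 genes. With the replicate block there were 28 rises and 5 falls among the 54 genes and 2198 and 1411 over all genes. Same-numbered samples deviated together at correlations of -0.09, -0.16 and 0.07, so the numbers were not taken as pairs.

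Values that changed sign were all small and not called. They were 0.0115 for Tpm2 and 0.00104 for Cnn1 under quantile normalization, 0.0124 for Ezr and 0.00925 for Rdx with centred arrays, 0.0109 for Ezr and 0.0312 for Rdx with array weights, and -0.0123 for Zyx and -0.021 for Arpc1a with quantile normalization over the tested genes only. Without 1 array the ranges were -0.0803 to 0.0111 for Tpm2, -0.123 to 0.0381 for Cnn1, -0.0661 to 0.0425 for Tagln, -0.00921 to 0.105 for Zyx, -0.000563 to 0.0839 for Arpc1a, -0.0609 to 0.0162 for Ezr and -0.048 to 0.0337 for Rdx. Dim signals near background and bright ones near saturation are compressed, so that sizes are less exact at both ends. At the low end this holds for Tmsb4x, Actg2, Cald1, Enah, Myl9, Myh10, Flnc, Diaph3, Acta2, Pfn2, Tagln, Tpm2 and Cnn1. It also holds for Nexn, Coro2a, Coro2b, Cit, Lcp1 and Myo1f. The untreated means of all these genes were below the array medians, that of Tmsb4x only just (7.10, against 7.11 to 7.19). At the high end it holds for Actb and Vim.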
